A study of Mus musculus with 24 samples.

Results

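The comparison set the 7 thymic lymphomas with the most Cd8b1 transcript against the 7 with the least, 14 of 21 lymphomas and 14 of the 24 libraries sequenced. The 21 lymphomas were ranked by Cd8b1 CPM (a gene's count per 1000000 counts of the library), the 7 in the middle were left out, and 3 libraries of normal thymus served as the normal tissue. The Cd8b1-high lymphomas were numbers 31, 12, 21, 34, 16, 10 and 14, in falling order, and the Cd8b1-low lymphomas were numbers 32, 22, 30, 20, 7, 19 and 18. All samples came from female B6C3F1 mice, a hybrid strain, and carry the same treatment label: carbon ions were given to the whole body in 4 doses of 1.6 Gy, 1 each week, from 4 to 5 weeks of age. The thymus libraries carry that label too, with a further mark, 7W, that the labels leave unexplained. RNA was taken from suspended lymphoma cells or thymocytes. Nothing in the labels ties a lymphoma to an animal of its own, and p-values therefore reflect only how these samples spread. Both lymphoma groups are defined by a measured level and not by a label, and no label gives replicate pairs or batches.

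Cd8b1 and Cd8a encode the beta and alpha chains of CD8, the coreceptor with which T cells read peptides on MHC class I molecules; the single-chain coreceptor CD4 does the same for MHC class II. Developing thymocytes start with neither coreceptor, pass through a long stage that carries both, called double-positive, and keep one of them as mature cells. The double-positive stage rearranges the T-cell receptor alpha gene with the recombinase made from Rag1 and Rag2.

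The ranking values were as follows. Cd8b1 stood at 178 CPM at the lowest, 221 at the median and 631 at the highest in the Cd8b1-high lymphomas, at 23.2, 50.1 and 94.0 CPM in the Cd8b1-low lymphomas, and at 1306 to 1549 CPM in thymus. At the upper limit, lymphoma 14 was the last included, at 178 CPM, and lymphoma 9 the first left out, at 171 CPM. At the lower limit, lymphoma 32 was included at 94.0 CPM and lymphoma 35 left out at 96.7 CPM. Lymphomas 31 and 12, at 631 and 628 CPM, stood well above the next, lymphoma 21 at 242 CPM. These levels chose the groups and were not tested.

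Some sequences go with the genes described next. They are RefSeq's promoter sequences on GRCm38.p6, read 5′ to 3′ along the gene's strand and ending at the base before RefSeq's gene start. The table used here holds no entry for Cd8b1. The promoters of Cd8a, the partner chain, and of Map3k5, the one gene that passed the test, are shown whole over 250 bases, at chr6:71373177-71373426 (plus strand) and chr10:19934276-19934525 (plus strand). Capitals mark E-boxes (CANNTG, a motif that reads the same on both strands), which basic helix-loop-helix factors such as the E proteins of thymocytes can bind. In the GENCODE M21 annotation, used below for gene positions, Map3k5 starts at 19934472, within the stretch shown. By that annotation its marked E-box lies inside the gene and not before it. Of 32851 promoter sequences over the same 250 bases, 66.2% held an E-box, and neither promoter held the RUNX motif TGTGGT on either strand, which 14.05% held.
Cd8a: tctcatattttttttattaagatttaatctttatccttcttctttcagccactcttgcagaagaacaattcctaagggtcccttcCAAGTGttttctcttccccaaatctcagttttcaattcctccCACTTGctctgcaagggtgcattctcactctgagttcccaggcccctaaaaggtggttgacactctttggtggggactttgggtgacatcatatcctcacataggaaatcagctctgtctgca
Map3k5: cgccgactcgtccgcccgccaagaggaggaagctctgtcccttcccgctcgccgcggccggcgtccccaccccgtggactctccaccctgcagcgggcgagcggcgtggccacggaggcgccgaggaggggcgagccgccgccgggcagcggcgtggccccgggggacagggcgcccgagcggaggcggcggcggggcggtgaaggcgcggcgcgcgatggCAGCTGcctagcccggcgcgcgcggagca
Stretches from 4 interferon-response promoters are shown because interferon-response genes had the most members lower in Cd8b1-high lymphomas. Capitals mark the interferon-stimulated response element, searched on both strands as TTTC, any 2 bases and TTTC, with overlapping matches written as 1 run. This motif was present in 2.98% of all promoter sequences. Counted by gene, it was present in 3.46% of 27025 genes with an entry and in 8 of the 13 interferon-list genes that had one. The stretches lie at chr12:26456543-26456592 (minus strand), chr8:71537567-71537616 (minus strand), chr19:34640784-34640833 (plus strand) and chr5:120907526-120907559 (minus strand).
Rsad2: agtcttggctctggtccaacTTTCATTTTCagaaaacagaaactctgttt
Bst2: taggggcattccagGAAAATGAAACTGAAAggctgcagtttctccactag
Ifit1: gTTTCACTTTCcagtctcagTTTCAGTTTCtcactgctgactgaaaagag
Oas1a: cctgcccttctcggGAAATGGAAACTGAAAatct
A match describes the letters only, and binding was not measured.

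Library totals spanned 14.999 to 36.6 M counts (M, 1000000) in Cd8b1-high lymphomas, 15.8 to 32.2 M in Cd8b1-low lymphomas and 24.5 to 27.5 M in thymus. Of the 14 lymphomas, numbers 12 (Cd8b1-high), 7 and 18 (Cd8b1-low) stood apart by their Notch1, at 51.9, 79.0 and 51.0 CPM against 744 CPM or more in the other 11, and by their Ptcra, at 0.376, 0.158 and 0.0932 CPM against 7.26 CPM or more. Counts of gene lists between the lymphoma groups are therefore also given without these 3, an alternative chosen after the data were seen. By mean correlation of log2(CPM + 1), 5 of 7 Cd8b1-high and 3 of 7 Cd8b1-low lymphomas were closer to their own group than to the other.

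Cd8a, the partner chain, was at a higher level in the Cd8b1-high lymphomas, and Cd4 overlapped over most of its range. Cd8a stood at 217 CPM at the lowest, 512 at the median and 1511 at the highest in Cd8b1-high lymphomas, at 13.1, 46.3 and 259 CPM in Cd8b1-low lymphomas, and at 2223 to 2559 CPM in thymus. The groups overlapped by 1 library on the high side: lymphoma 14, at 217 CPM, lay below lymphomas 32 and 22, at 259 and 252 CPM. The difference was a log2 fold change of 2.59 (SE 0.64), with an unadjusted p of 0.000849, and did not pass after Benjamini-Hochberg adjustment in edgeR's quasi-likelihood test (adjusted p = 0.211). It passed in DESeq2 (adjusted p = 0.00255) and with log2(CPM + 1) of Cd8b1 as a continuous covariate over all 21 lymphomas in edgeR (adjusted p = 0.000256), where Cd8a had the smallest p of all genes; its adjusted p over all alternatives was between 0.000256 and 0.510. In these bulk samples, fewer cells that carry a transcript and less of it per cell cannot be told apart.

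Per unit of transcript length, in the deposited TPM values (transcript abundance scaled to length and depth), Cd8a was 0.553 to 1.29 times Cd8b1 in the Cd8b1-high lymphomas, 0.180 to 1.30 times in the Cd8b1-low lymphomas and 0.747 to 0.770 times in thymus. The ranges overlapped, and both lymphoma groups reached above and below thymus. Cd8b1, which chose the groups, is the divisor of this ratio, so the choice itself can shift it between groups, and it was not tested. Cd4 stood at 158 CPM at the lowest, 343 at the median and 1611 at the highest in Cd8b1-high lymphomas, at 14.3, 417 and 823 CPM in Cd8b1-low lymphomas, and at 1210 to 1375 CPM in thymus. The groups overlapped over most of their range, and the Cd8b1-low lymphomas were split: numbers 20 and 19 had 14.3 and 45.6 CPM, and the other 5 had 404 CPM or more. The log2 fold change of Cd4 was 0.51 (SE 0.69, adjusted p = 0.843 by edgeR's quasi-likelihood test). It was -0.0265 without lymphoma 12 alone and -0.43 without lymphomas 12 and 31, so its direction rested on lymphoma 12.

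**Figure D1:**
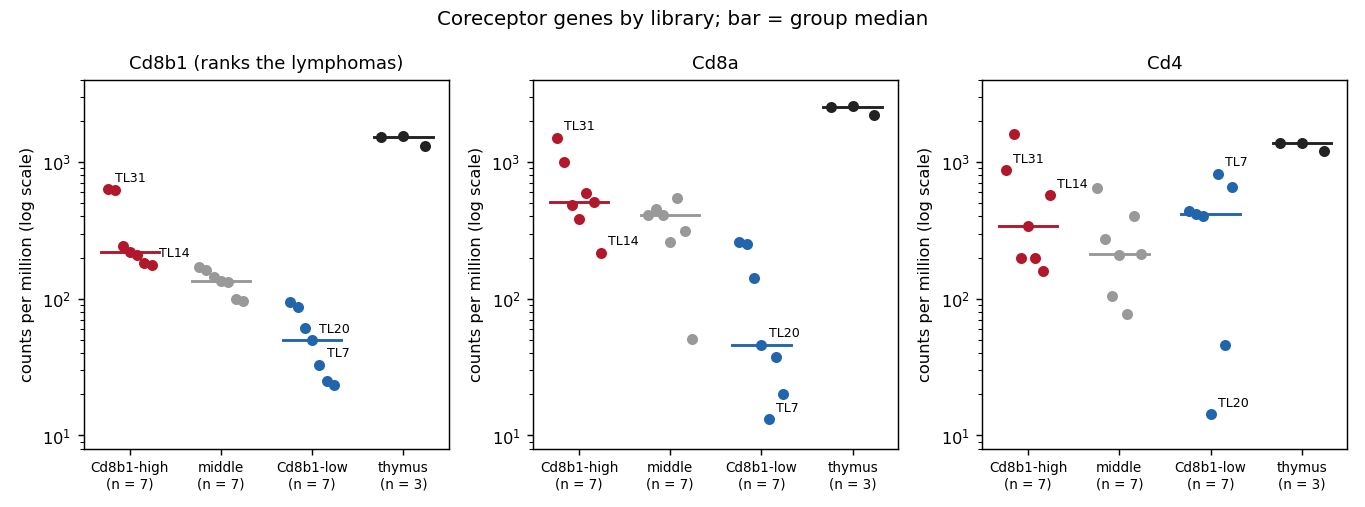
CPM on a log scale for Cd8b1, which ranked the lymphomas, Cd8a and Cd4. Each point is 1 library, in the groups Cd8b1-high, middle, Cd8b1-low and thymus, bars are group medians, and a label such as TL31 names lymphoma 31. Cd8a medians are 512 CPM in Cd8b1-high and 46.3 CPM in Cd8b1-low lymphomas, while the Cd4 medians are 343 and 417 CPM.

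Cd8b1 (chromosome 6, 71322788 to 71337494, plus strand, GENCODE M21 on GRCm38) lies 35.9 kb before Cd8a (71373427 to 71379173, plus strand). On its other side, and on the opposite strand, lies Smyd1 (71213940 to 71322233), whose annotated start is 554 bases from that of Cd8b1. Smyd1 encodes a lysine methyltransferase of heart and skeletal muscle and was first named Bop, for CD8b opposite. It stood at 34.6, 59.8, 20.6 and 35.8 CPM in lymphomas 31, 12, 21 and 34, at 1.14, 1.94 and 3.47 CPM in the other Cd8b1-high lymphomas, at 0.19 to 6.99 CPM in Cd8b1-low lymphomas and at 12.3 to 13.5 CPM in thymus. The 4 lymphomas with the most Cd8b1 were therefore the 4 with the most Smyd1 among the 14, and all 4 exceeded thymus, although their Cd8b1 was below that of thymus. The log2 fold change was 3.38 (SE 0.91; unadjusted p = 0.00176, adjusted p = 0.253 by edgeR's quasi-likelihood test). Of the alternatives, Smyd1 passed only in DESeq2 (adjusted p = 0.0038). Whether counting used strand is not given in the sources, and reads of overlapping transcripts cannot be told apart without it.

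Over the 18 other tested genes within 1 Mb of Cd8b1, Smyd1 included and Cd8a left out, the median log2 fold change was 0.0018. It was the same over all 12912 genes tested (0.0018). Of the 18, 2 had an unadjusted p under 0.05, Smyd1 and Rmnd5a, against 11.2% of all genes tested. Rmnd5a, a subunit of the CTLH ubiquitin ligase that is abundant in double-positive thymocytes, stood at 210 CPM at the lowest, 325 at the median and 847 at the highest in Cd8b1-high lymphomas and at 185, 256 and 329 CPM in Cd8b1-low lymphomas. Those ranges overlapped, with 3 of 7 Cd8b1-high lymphomas above all Cd8b1-low ones (log2 fold change 0.55, SE 0.24; adjusted p = 0.417 by edgeR's quasi-likelihood test).

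Between the groups, 1 gene of 12912 tested (0.00774%) passed edgeR's quasi-likelihood test at a threshold of 0.05 after adjustment by the method of Benjamini and Hochberg. It was Map3k5, which encodes ASK1, a kinase that activates the JNK and p38 pathways under oxidative and other stress, and it was lower in Cd8b1-high lymphomas. No gene passed as higher (0.0%), and Cd8b1 was kept out of the test. At an unadjusted p under 0.05 there were 1441 genes (11.2%), 621 higher (4.81%) and 820 lower (6.35%). DESeq2 called 190 genes, 80 higher and 110 lower, limma-voom and limma on TPM called 1 each, and the continuous covariate over all 21 lymphomas called 21 genes. In 13 genes (0.101%) the groups did not overlap in CPM, 7 with all Cd8b1-high lymphomas above (0.0542%) and 6 with all below (0.0465%).

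Map3k5 stood at 2.17 CPM at the lowest, 3.99 at the median and 7.40 at the highest in Cd8b1-high lymphomas, at 13.4, 26.4 and 39.6 CPM in Cd8b1-low lymphomas, and at 17.1 to 18.6 CPM in thymus. Every Cd8b1-high lymphoma lay below every Cd8b1-low lymphoma and below thymus, and the Cd8b1-low lymphomas lay on both sides of thymus. The middle lymphomas, which took no part in the fit, had 6.96 to 48.0 CPM, and number 35, just above the lower limit in Cd8b1, had the most. The log2 fold change was -2.49 (SE 0.28; adjusted p = 0.00121 by edgeR's quasi-likelihood test). Against thymus it fell in Cd8b1-high lymphomas (log2 fold change -1.94, SE 0.32; adjusted p = 0.00109 in the same test) and did not pass in Cd8b1-low lymphomas (0.55, SE 0.35; adjusted p = 0.26), comparisons that share the 3 thymus libraries; the first was lost with 10 lymphomas a side (adjusted p = 0.0656). Of 33 alternatives, ranking by TMM-scaled CPM chose the same lymphomas and so repeated the main fit, and many others left out 1 library. The difference between the groups passed in 31 of the 33. The exceptions were the 10 highest against the 10 lowest lymphomas (log2 fold change -1.81, adjusted p = 0.0925) and the continuous covariate (slope -0.79 per log2 unit of Cd8b1, adjusted p = 0.0628).

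Map3k5 lies on chromosome 10 at 19934472 to 20142753 (plus strand). Of 12 other tested genes within 1 Mb of its ends, 4 had an unadjusted p under 0.05, and all 4 were lower in Cd8b1-high lymphomas, against 11.2% of all genes tested (6.35% lower), although the median over the 12 was -0.06. Slc35d3, a gene of the nucleotide-sugar transporter family, stood at 0 CPM at the lowest, 0.067 at the median and 0.274 at the highest in Cd8b1-high lymphomas, at 0.338, 0.686 and 5.58 CPM in Cd8b1-low lymphomas, and at 0.555 to 1.10 CPM in thymus. The groups did not overlap, but these are few counts. Its log2 fold change was -3.76 (SE 0.77, adjusted p = 0.161 by edgeR's quasi-likelihood test). Slc35d3 passed in DESeq2 (adjusted p = 0.000229) and in no other alternative. Against thymus it fell in Cd8b1-high lymphomas (-2.71, SE 0.86, adjusted p = 0.0354 in the same test). That call was lost without lymphoma 21, 34, 16 or 14 or any of the thymus libraries (adjusted p of 0.0547 to 0.143). It was also lost with 10 lymphomas a side (adjusted p = 0.357) and in limma on log2(TPM + 1) (adjusted p = 0.251).

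The remaining 3 were Il20ra, a chain of the receptor for interleukins 20 and 24 (log2 fold change -3.10, SE 0.69; adjusted p = 0.190 by edgeR's quasi-likelihood test), Pde7b, a cAMP phosphodiesterase gene (-2.73, SE 0.80; adjusted p = 0.260), and Pex7, which encodes a receptor for import into peroxisomes (-0.47, SE 0.22; adjusted p = 0.425). Il20ra and Pde7b passed in DESeq2 alone of the alternatives (adjusted p = 0.00387 and 0.0295), and Pex7 passed in none. Il20ra was at most 0.274 CPM in Cd8b1-high lymphomas and at most 2.28 CPM in Cd8b1-low ones. The value of Pde7b rested on lymphoma 7, at 11.1 CPM against 2.03 CPM or less in the other Cd8b1-low lymphomas. Over the 613 tested genes of chromosome 10 the median was -0.08.

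**Figure D2:**
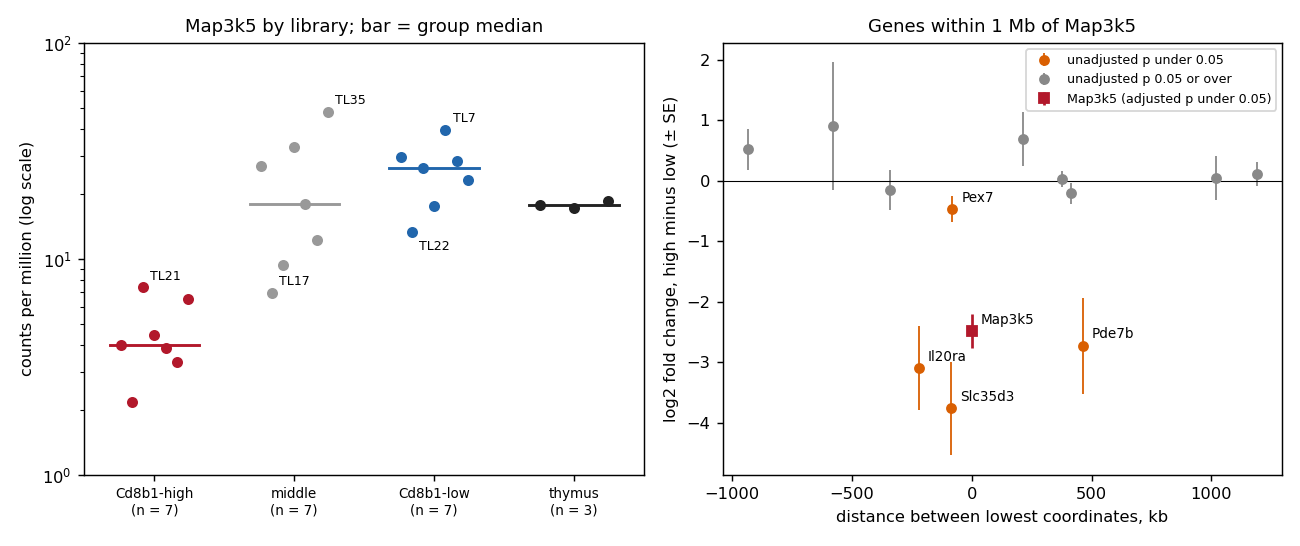
Left, Map3k5 in CPM on a log scale, 1 point per library in the groups Cd8b1-high, middle, Cd8b1-low and thymus, with bars at group medians (3.99, 17.9, 26.4 and 17.7 CPM). Right, log2 fold change of Cd8b1-high minus Cd8b1-low lymphomas, with SE bars, for Map3k5 and the 12 tested genes within 1 Mb, by distance between the genes' lowest coordinates in kb. Il20ra, Slc35d3, Pex7 and Pde7b, in orange, had an unadjusted p under 0.05, and the other 8 lie between -0.21 and 0.90.

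The genes next in order of p were looked up after their values were seen. The 6 named here did not pass in edgeR's quasi-likelihood test and passed in DESeq2. Als2cl stood at 18.9 CPM at the lowest, 71.7 at the median and 149 at the highest in Cd8b1-high lymphomas, at 2.42, 11.98 and 27.5 CPM in Cd8b1-low lymphomas, and at 123 to 157 CPM in thymus. Only lymphoma 16 of the Cd8b1-high group, at 18.9 CPM, fell within the Cd8b1-low range (log2 fold change 2.69, SE 0.45, adjusted p = 0.112 by edgeR's quasi-likelihood test). The middle lymphomas, which took no part in the fit, ran from 2.66 CPM in number 17 to 142 CPM in number 35, although number 17 had more Cd8b1. Without lymphoma 16 or 19 the gene passed (adjusted p = 0.0172 and 0.0242 in the same test). With DESeq2, these were the only 3 of 33 alternatives in which Als2cl passed. Its adjusted p ran from 1.41e-06 to 0.719 over all of them. Against thymus, Als2cl fell in Cd8b1-low lymphomas (-3.47, SE 0.52; adjusted p = 0.000427; 0.0696 when lymphomas were ranked by TPM and 0.0518 with 10 lymphomas a side) and did not pass in Cd8b1-high ones (-0.78, SE 0.53; adjusted p = 0.301).

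The same order of levels, thymus above Cd8b1-high above Cd8b1-low, was seen without overlap between the lymphoma groups in Smim13, which encodes a small membrane protein (44.3 to 69.5 CPM in Cd8b1-high, 30.7 to 41.9 in Cd8b1-low and 74.0 to 94.5 in thymus), in Them4, a thioesterase gene (3.96 to 6.71, 0.776 to 2.76 and 6.66 to 7.81 CPM, where 1 Cd8b1-high library reached the thymus range) and, but for lymphoma 12 at 60.2 CPM, in Plcxd2 (15.2 to 60.2, 7.88 to 14.6 and 32.1 to 41.3 CPM). Each had an adjusted p of 0.161 in edgeR's quasi-likelihood test and passed in DESeq2. Lower without overlap was Anapc11, the RING subunit of the anaphase-promoting complex, at 33.0 to 50.0 CPM in Cd8b1-high lymphomas and 50.1 to 91.0 CPM in Cd8b1-low lymphomas. Tmem173, which encodes the innate DNA sensor adaptor STING, stood at 50.2 CPM at the lowest, 61.9 at the median and 91.9 at the highest in Cd8b1-high lymphomas, at 60.1, 140 and 188 CPM in Cd8b1-low lymphomas, and at 42.0 to 46.1 CPM in thymus. Lymphoma 19, at 60.1 CPM, was the only Cd8b1-low lymphoma within the Cd8b1-high range (log2 fold change -1.01, SE 0.19; adjusted p = 0.161 by edgeR's quasi-likelihood test, 0.00239 without it), and against thymus Tmem173 rose in Cd8b1-low lymphomas (1.62, SE 0.27; adjusted p = 0.000784).

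Markers of double-positive thymocytes leaned toward the Cd8b1-high lymphomas, none past the test. Of 18 tested, 16 had a positive log2 fold change and the median was 0.53; 6 were higher and 0 lower at an unadjusted p under 0.05, against 4.81% of all genes as higher, and 0 passed adjustment in edgeR's quasi-likelihood test (1 in DESeq2, Cd8a). Without lymphomas 7, 12 and 18 the median was 0.35, with 3 higher, and without lymphomas 12 and 31 it was 0.01, with 2 higher. The lean of this list therefore rested in large part on lymphomas 12 and 31, which had the most of these transcripts, at a summed 11859 and 9210 CPM, against 3832 to 4903 CPM in the other 5 Cd8b1-high lymphomas, 2799 to 5808 CPM in the Cd8b1-low ones and 16712 to 18683 CPM in thymus.

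Satb1, a chromatin organizer that acts at the Rag and coreceptor genes, stood at 592, 896 and 1677 CPM at the lowest, median and highest in Cd8b1-high lymphomas, at 506, 622 and 820 CPM in Cd8b1-low lymphomas, and at 3134 to 3446 CPM in thymus (a log2 fold change of 0.65, SE 0.19; adjusted p = 0.260 by edgeR's quasi-likelihood test). Bcl2l1, which encodes the survival factor Bcl-xL, stood at 35.8, 50.8 and 208 CPM in Cd8b1-high lymphomas, at 28.0, 34.8 and 71.0 CPM in Cd8b1-low lymphomas, and at 342 to 389 CPM in thymus (0.92, SE 0.39; adjusted p = 0.388). In Bcl2l1, lymphomas 12 and 31 were the only ones above the Cd8b1-low range, and in Satb1 4 of 7 were. Cd1d1, which encodes the molecule that presents lipids to natural killer T cells, was 17.2 to 39.9 CPM in Cd8b1-high and 13.98 to 27.8 CPM in Cd8b1-low lymphomas (0.61, SE 0.21; adjusted p = 0.306).

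The recombination genes overlapped between the groups. Rag1 stood at 483 CPM at the lowest, 834 at the median and 1904 at the highest in Cd8b1-high lymphomas, at 4.78, 514 and 1158 CPM in Cd8b1-low lymphomas, and at 2065 to 3530 CPM in thymus (a log2 fold change of 1.00, SE 0.71; adjusted p = 0.646 by edgeR's quasi-likelihood test). Rag2 stood at 1.26, 15.7 and 67.9 CPM in Cd8b1-high lymphomas, at 0.031, 6.15 and 40.4 CPM in Cd8b1-low lymphomas, and at 302 to 339 CPM in thymus (0.73, SE 0.96; adjusted p = 0.839). Of 10 recombination genes, 9 had a positive value and 1 was higher at an unadjusted p under 0.05, against 4.81% of all genes tested. It was Dclre1c, which encodes the Artemis nuclease that opens the hairpins of cut gene segments (0.55, SE 0.24, adjusted p = 0.409 in the same test). Without lymphomas 7, 12 and 18 the count was also 1. Dntt, the terminal transferase that adds bases at the joints, was 116 to 1216 CPM in Cd8b1-high and 78.7 to 978 CPM in Cd8b1-low lymphomas (0.26, SE 0.56; adjusted p = 0.911).

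In the step before, the pre-T-cell receptor and Notch1 drive thymocytes toward the double-positive stage. Of 14 Notch receptors and targets, 2 were lower at an unadjusted p under 0.05, Hey1 and Notch2, against 6.35% of all genes tested, and 0 higher (median -0.18). Of 15 genes of the pre-T-cell receptor step, 1 was lower and 12 had a positive value (median 0.26). Without lymphomas 7, 12 and 18, 1 of 13 and 0 of 15 were lower. The fixed genes Ptcra, Il2ra, Notch1 and Bcl11b did not separate the groups. Ptcra, the pre-T-cell receptor alpha chain, was 0.376 to 276 CPM in Cd8b1-high and 0.0932 to 256 CPM in Cd8b1-low lymphomas (log2 fold change 0.45, SE 1.11; adjusted p = 0.923 by edgeR's quasi-likelihood test). Il2ra, the interleukin 2 receptor alpha chain of early thymocytes, was 11.1 to 1084 CPM and 16.4 to 1452 CPM in these groups (-0.41, SE 0.99; adjusted p = 0.922). Notch1 was 51.9 to 2236 CPM and 51.0 to 1478 CPM (0.54, SE 0.67; adjusted p = 0.826). The low ends of Ptcra and Notch1 are lymphomas 12, 7 and 18, which lie in both groups. Bcl11b, needed for commitment to the T lineage, was 245 to 624 CPM in Cd8b1-high and 175 to 519 CPM in Cd8b1-low lymphomas (0.33, SE 0.25; adjusted p = 0.671).

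**Figure D3:**
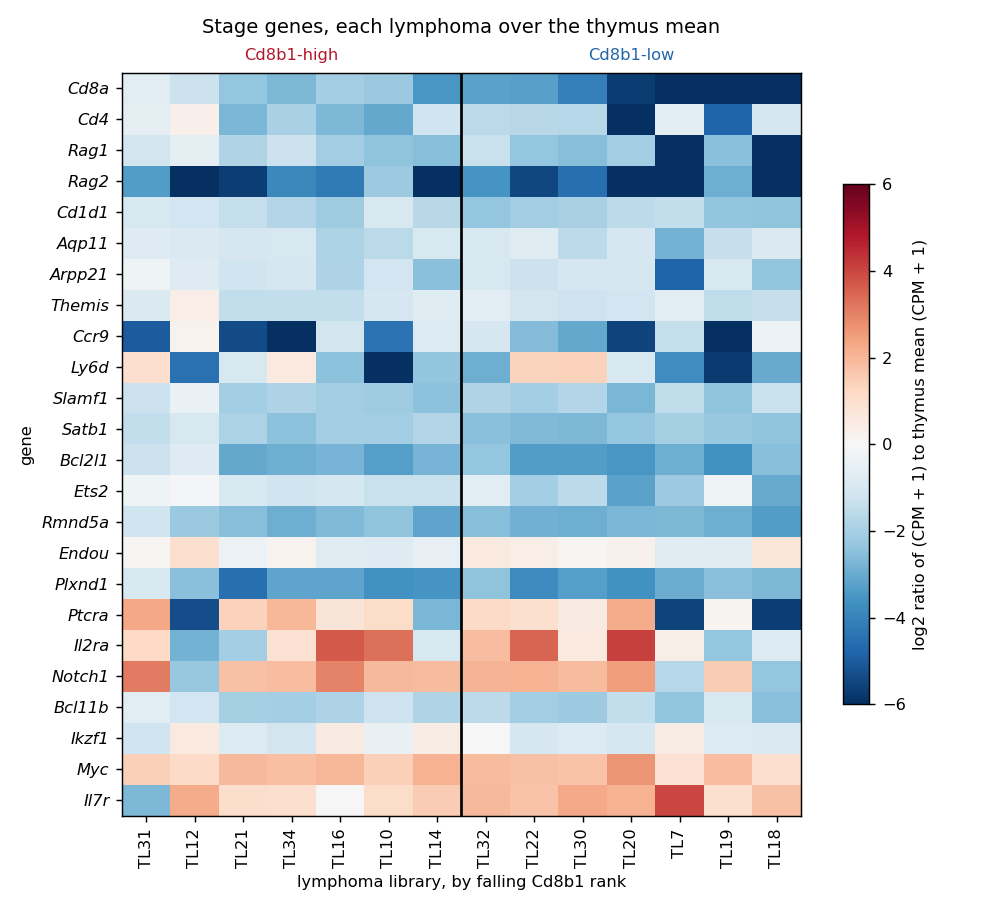
Log2 ratio of CPM + 1 in each lymphoma to the thymus mean of CPM + 1, with Cd8b1-high lymphomas left and Cd8b1-low lymphomas right of the line, each in falling order of Cd8b1. Rows are 17 double-positive markers, then Ptcra, Il2ra, Notch1, Bcl11b, Ikzf1, Myc and Il7r; blue is below and red above thymus, and colours end at -6 and 6. Most double-positive markers are blue in both groups, and lymphomas 31 and 12 are the palest in Bcl2l1.

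Genes of early double-negative thymocytes and progenitors were mostly lower in Cd8b1-high lymphomas. Of 12 tested, of 19 in the list, 11 had a negative log2 fold change and the median was -0.88; 4 were lower and 0 higher at an unadjusted p under 0.05 (6.35% of all genes were lower), and 0 passed adjustment in edgeR's quasi-likelihood test (1 in DESeq2). The other 7 did not pass the filter on low counts. Without lymphomas 7, 12 and 18, 3 were lower (median -0.71), and without lymphomas 12 and 31, 4 were lower (median -0.64). Nfe2, a transcription factor of blood progenitors and megakaryocytes, stood at 0.041 CPM at the lowest, 0.520 at the median and 1.25 at the highest in Cd8b1-high lymphomas and at 0.432, 2.03 and 11.4 CPM in Cd8b1-low lymphomas (-2.47, SE 0.71; adjusted p = 0.260). Lyl1, a basic helix-loop-helix factor of early progenitors, was 1.13 to 6.94 CPM and 2.59 to 16.6 CPM in these groups (-1.21, SE 0.48; adjusted p = 0.365), and Flt3, a progenitor cytokine receptor, was 0.467 to 3.56 CPM and 1.35 to 8.51 CPM (-1.08, SE 0.45; adjusted p = 0.391). All 3 genes are at few CPM and their groups overlapped.

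Of 23 transcription and chromatin factors known to act on the coreceptor genes, 4 were higher and 2 lower at an unadjusted p under 0.05, against 4.81% and 6.35% of all genes tested. The median was 0.11, and 0 passed adjustment in edgeR's quasi-likelihood test or DESeq2. When lymphomas 7, 12 and 18 were left out, 2 were higher and 1 lower (median 0.03). Besides Satb1, the higher ones included Runx1 (118 to 247 CPM in Cd8b1-high and 99.1 to 169 CPM in Cd8b1-low lymphomas; log2 fold change 0.42, SE 0.16; adjusted p = 0.335) and Ikzf3, which encodes the Ikaros relative Aiolos (132 to 529 and 74.0 to 272 CPM; 0.81, SE 0.31; adjusted p = 0.364). Of the lower ones, Gata3, which favours the CD4 lineage, was 67.6 to 212 CPM in Cd8b1-high and 126 to 433 CPM in Cd8b1-low lymphomas (-0.66, SE 0.28; adjusted p = 0.402). Ikzf1, which encodes Ikaros, was 426 to 1458 CPM and 487 to 1365 CPM (0.36, SE 0.32; adjusted p = 0.742). Ranges overlapped in each of these genes.

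Interferon-response genes and macrophage markers were mostly lower in Cd8b1-high lymphomas. Of 18 interferon-response genes, 17 had a negative log2 fold change, the median was -1.05, and 13 were lower at an unadjusted p under 0.05, against 6.35% of all genes tested; 0 passed adjustment in edgeR's quasi-likelihood test, and DESeq2 called 2 as lower. Their summed level was 342 CPM at the lowest, 443 at the median and 545 at the highest in Cd8b1-high lymphomas, 449, 556 and 1271 CPM in Cd8b1-low lymphomas, and 985 to 1039 CPM in thymus. Of the 14 lymphomas, lymphoma 7 had the most, at 1271 CPM, and lymphomas 19 and 18 followed at 724 and 718 CPM. The middle lymphomas had 444, 577 and 932 CPM at the lowest, median and highest, a median above that of the Cd8b1-low lymphomas. The 932 CPM was in lymphoma 9, the first left out at the upper limit of Cd8b1. Across all 21 lymphomas the sum therefore did not rise steadily as Cd8b1 fell. Without lymphomas 7, 12 and 18 the count was 2 of 18 (median -0.49), and without lymphomas 12 and 31 it was 7 (median -1.003). In the first of these fits 1257 of all 12740 genes tested had an unadjusted p under 0.05 in either direction by edgeR's quasi-likelihood test. In the second 1262 of 12865 did. Those totals also stand beside the counts of the other lists in these 2 fits.

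Oasl2, an antiviral gene of the oligoadenylate synthetase family, stood at 0.626 CPM at the lowest, 1.36 at the median and 3.81 at the highest in Cd8b1-high lymphomas, at 2.25, 4.05 and 21.3 CPM in Cd8b1-low lymphomas, and at 8.06 to 9.77 CPM in thymus (a log2 fold change of -2.47, SE 0.57; adjusted p = 0.211 by edgeR's quasi-likelihood test). Of the Cd8b1-high lymphomas, 6 of 7 lay below the whole Cd8b1-low range. Of the 4 genes whose promoter stretches are printed above, Bst2, which encodes the tether tetherin that holds budding viruses, was 31.7 to 129 CPM in Cd8b1-high and 68.4 to 198 CPM in Cd8b1-low lymphomas (-0.94, SE 0.35; adjusted p = 0.344). Rsad2, the antiviral enzyme viperin, was 1.18 to 3.12 CPM and 0.733 to 43.6 CPM, where lymphoma 7 alone gave the top value (-2.26, SE 0.76; adjusted p = 0.299). Ifit1 (0.250 to 2.21 and 0.437 to 7.42 CPM) and Oas1a (0.195 to 5.04 and 0.543 to 18.3 CPM) were at few CPM in both groups.

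Of 14 macrophage markers, 13 had a negative log2 fold change, the median was -0.71, and 8 were lower at an unadjusted p under 0.05, against 6.35% of all genes tested; 0 passed adjustment in edgeR's quasi-likelihood test and DESeq2 called 2. Their summed level was 313 CPM at the lowest, 453 at the median and 658 at the highest in Cd8b1-high lymphomas, 472, 587 and 1486 CPM in Cd8b1-low lymphomas, and 159 to 240 CPM in thymus, and no marker was at 0 throughout a group. The middle lymphomas had 387, 520 and 956 CPM. Lyz2, the lysozyme of macrophages and granulocytes, stood at 73.2, 110 and 141 CPM at the lowest, median and highest in Cd8b1-high lymphomas, at 132, 182 and 299 CPM in Cd8b1-low lymphomas, and at 45.5 to 57.7 CPM in thymus. Of the Cd8b1-high lymphomas, 6 of 7 lay below the whole Cd8b1-low range (log2 fold change -0.79, SE 0.19; adjusted p = 0.211 by edgeR's quasi-likelihood test). Adgre1, which encodes the F4/80 antigen, was 4.04 to 9.40 CPM and 6.91 to 23.6 CPM in these groups (-1.19, SE 0.33; adjusted p = 0.260), and C1qc, a complement C1q chain, was 13.4 to 35.9 CPM and 21.5 to 75.9 CPM (-0.85, SE 0.29; adjusted p = 0.306).

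Without lymphomas 7, 12 and 18, 6 macrophage markers were lower (median -0.76), and without lymphomas 12 and 31, 2 were (median -0.60). Lymphoma 19, at 724 and 1486 CPM, and lymphoma 18, at 718 and 792 CPM, were among the 3 highest Cd8b1-low lymphomas in both the interferon and the macrophage sum. The lists differed in other libraries: lymphoma 7 led the first list and had the lowest macrophage sum of the Cd8b1-low lymphomas, 472 CPM, while lymphoma 20 had 1042 CPM of macrophage markers and the lowest interferon sum of that group, 449 CPM. The part of macrophage RNA in the interferon difference was not tested.

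**Figure D4:**
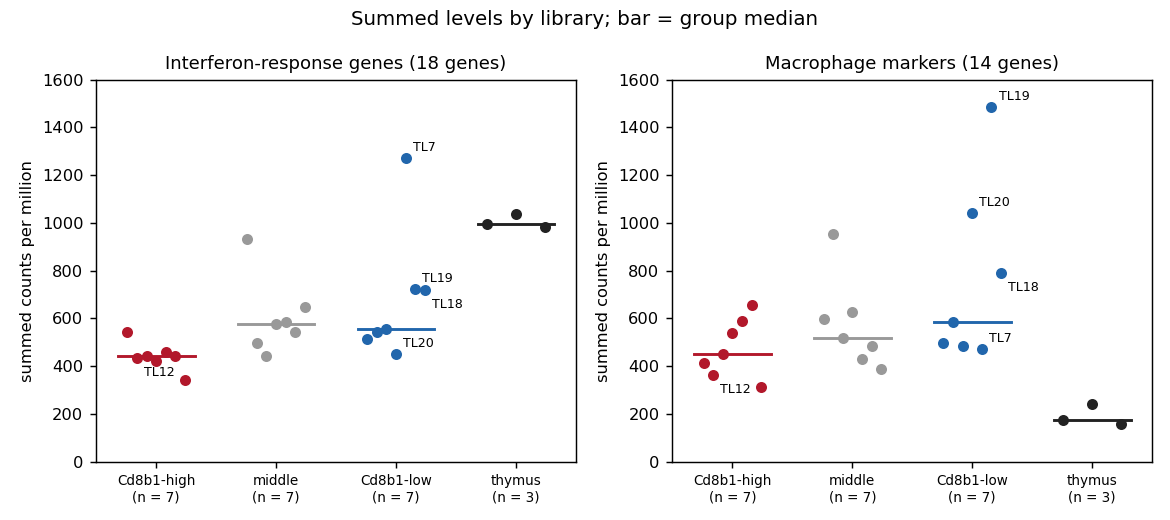
Summed CPM of 18 interferon-response genes and of 14 macrophage markers, 1 point per library in the groups Cd8b1-high, middle, Cd8b1-low and thymus, with bars at group medians. Cd8b1-high lymphomas span 342 to 545 CPM of interferon-response genes against 449 to 1271 CPM in Cd8b1-low lymphomas, and lymphoma 7 stands apart in the first panel but not in the second.

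Lists of other cell types gave the following. Of 12 natural killer and cytotoxic genes, 3 were lower at an unadjusted p under 0.05 (median -1.02), against 6.35% of all genes tested. The count was 2 without lymphomas 7, 12 and 18 (median -0.21). Among the 3 were Fcer1g and Tyrobp, signalling adaptors that macrophages carry too. Fcer1g stood at 3.37 CPM at the lowest, 6.77 at the median and 11.1 at the highest in Cd8b1-high lymphomas, at 6.81, 16.6 and 38.1 CPM in Cd8b1-low lymphomas, and at 5.48 to 7.58 CPM in thymus (a log2 fold change of -1.52, SE 0.38; adjusted p = 0.211 by edgeR's quasi-likelihood test). It passed with the continuous covariate (adjusted p = 0.0108) and in DESeq2. Tyrobp was 5.51 to 16.5 CPM and 10.3 to 35.8 CPM in the lymphoma groups (-0.80, SE 0.30; adjusted p = 0.355). Of 6 tested erythroid genes, 4 were higher at an unadjusted p under 0.05 (median 1.14), against 4.81% of all genes tested. The count was 4 without lymphomas 7, 12 and 18 (median 1.55) and 1 without lymphomas 12 and 31 (median 1.01). Among the 4 were the globin genes Hbb-bs (4.58 to 44.0 CPM in Cd8b1-high and 2.05 to 23.1 CPM in Cd8b1-low lymphomas; adjusted p = 0.409) and Hba-a1 (16.5 to 110 and 6.37 to 65.8 CPM; adjusted p = 0.425), whose near-identical copies may have shared reads. Epor, the erythropoietin receptor gene, was at 30.002 CPM in lymphoma 16 and at 0.843 CPM or less in the other 13. The summed erythroid level was 28.9 to 162 CPM in Cd8b1-high lymphomas, 10.1 to 98.3 CPM in Cd8b1-low lymphomas and 28.1 to 34.8 CPM in thymus.

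At an unadjusted p under 0.05, 4.81% of all genes tested were higher and 6.35% lower. Of 11 fibroblast genes, 1 was higher and 2 lower at that level, 9 had a negative log2 fold change and the median was -0.59. Without lymphomas 7, 12 and 18 none of 10 reached that level by edgeR's quasi-likelihood test (median -0.42). Without lymphomas 12 and 31, 1 was higher and 3 lower (median -0.58). Col1a2, a collagen chain, was 7.17 to 460 CPM in Cd8b1-high and 20.2 to 82.3 CPM in Cd8b1-low lymphomas (log2 fold change 2.05, SE 0.77; adjusted p = 0.350 by edgeR's quasi-likelihood test). Pdgfra, a growth factor receptor gene, was at most 1.67 CPM in Cd8b1-high lymphomas and at most 2.29 CPM in Cd8b1-low ones other than lymphoma 18, at 25.2 CPM (-2.62, SE 0.90; adjusted p = 0.306). Of 9 dendritic-cell genes, 2 were lower and the median was -0.47 (none lower, and -0.49, without lymphomas 7, 12 and 18). Of 8 B-cell genes and 3 endothelial genes none had an unadjusted p under 0.05, nor did any without those lymphomas. With all lymphomas of both groups, these lists had 0 adjusted calls in edgeR's quasi-likelihood test and in DESeq2.

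Among T-cell functions, 24 T-cell receptor signalling genes had a median of 0.09 and none with an unadjusted p under 0.05 (0 in DESeq2), and without lymphomas 7, 12 and 18, 2 were higher (median 0.20). Beside the counts that follow, 4.81% of all genes tested were higher and 6.35% lower at an unadjusted p under 0.05. Of 18 genes of mature thymocytes, 2 were lower and the median was -0.37. They were Il7r, the interleukin 7 receptor alpha chain (13.1 to 425 CPM in Cd8b1-high and 175 to 1457 CPM in Cd8b1-low lymphomas; log2 fold change -1.32, SE 0.54; adjusted p = 0.380 by edgeR's quasi-likelihood test), and Itgb7, an integrin of gut homing (9.92 to 165 and 29.9 to 811 CPM; -1.50, SE 0.65; adjusted p = 0.409); in both, lymphoma 7 had the highest value. Without lymphomas 7, 12 and 18 the median of this list turned to 0.59, with 2 higher and 3 lower. Of 11 genes of innate-like T cells, 1 was higher and 3 lower (median -0.46), and without lymphomas 7, 12 and 18 the median turned to 0.73 with 3 lower. Among the lower ones were the transcription factor gene Maf (1.78 to 5.96 CPM and 3.55 to 86.9 CPM; -2.91, SE 0.72; adjusted p = 0.211) and the kinase gene Blk (0.357 to 8.998 and 0.388 to 69.2 CPM; -2.85, SE 1.04; adjusted p = 0.331). Maf passed in DESeq2 alone of the alternatives (adjusted p = 0.00197), and Blk passed in none. Of 13 genes of MHC class I and its loading, 2 were lower (median -0.51), and without lymphomas 7, 12 and 18, 1 of 12 was (median 0.01). The lower ones included B2m, the light chain that class I molecules need, at 153 CPM at the lowest, 561 at the median and 1046 at the highest in Cd8b1-high lymphomas and 809, 866 and 1489 CPM in Cd8b1-low lymphomas (-0.79, SE 0.28; adjusted p = 0.306), with 6 of 7 Cd8b1-high lymphomas below the whole Cd8b1-low range.

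Growth programmes did not separate the groups. None of 20 replication genes, 18 mitosis genes, 20 ribosome biogenesis genes and 20 oxidative phosphorylation genes had an unadjusted p under 0.05 (0 in DESeq2), with medians of 0.00, 0.11, -0.02 and -0.02. Over all genes tested, 4.81% were higher and 6.35% lower at an unadjusted p under 0.05, to set beside the counts that follow. Of 20 glycolysis genes, 1 was higher and 2 lower (median -0.09). Without lymphomas 7, 12 and 18, 3 were higher and none lower (median 0.07). Without those lymphomas 1 ribosome biogenesis gene was lower, and no gene of the other 3 lists had an unadjusted p under 0.05 (edgeR's quasi-likelihood test). Myc, the growth-driving transcription factor, was 190 to 362 CPM in Cd8b1-high and 154 to 535 CPM in Cd8b1-low lymphomas (log2 fold change -0.06, SE 0.23; adjusted p = 0.952 by edgeR's quasi-likelihood test). The tumour suppressor gene Cdkn2a was 0.969 to 73.1 CPM and 0.435 to 79.1 CPM (-0.35, SE 0.97; adjusted p = 0.935). Of 16 p53 targets, 3 were higher and 1 lower (median 0.13), and without lymphomas 7, 12 and 18, 1 was higher (median -0.01). Trp53inp1, an autophagy gene, was 68.3 to 1019 CPM and 160 to 344 CPM (0.85, SE 0.36; adjusted p = 0.400), and the death receptor gene Fas was 6.60 to 60.9 CPM and 1.27 to 13.9 CPM (1.30, SE 0.56; adjusted p = 0.407). Of 15 tested immediate-early genes, 1 was higher and 1 lower (median -0.09), and 9 had a negative log2 fold change; without lymphomas 7, 12 and 18, 2 were higher and 1 lower (median 0.21). The higher one was Irf4, an immediate-early target of T-cell receptor signals, at 1.02 to 73.1 CPM and 1.13 to 9.87 CPM, with 6 of 7 Cd8b1-high lymphomas above the whole Cd8b1-low range (1.99, SE 0.61, adjusted p = 0.277 by edgeR's quasi-likelihood test). Irf4 passed in DESeq2 (adjusted p = 0.0406) and in no other alternative.

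**Figure D5:**
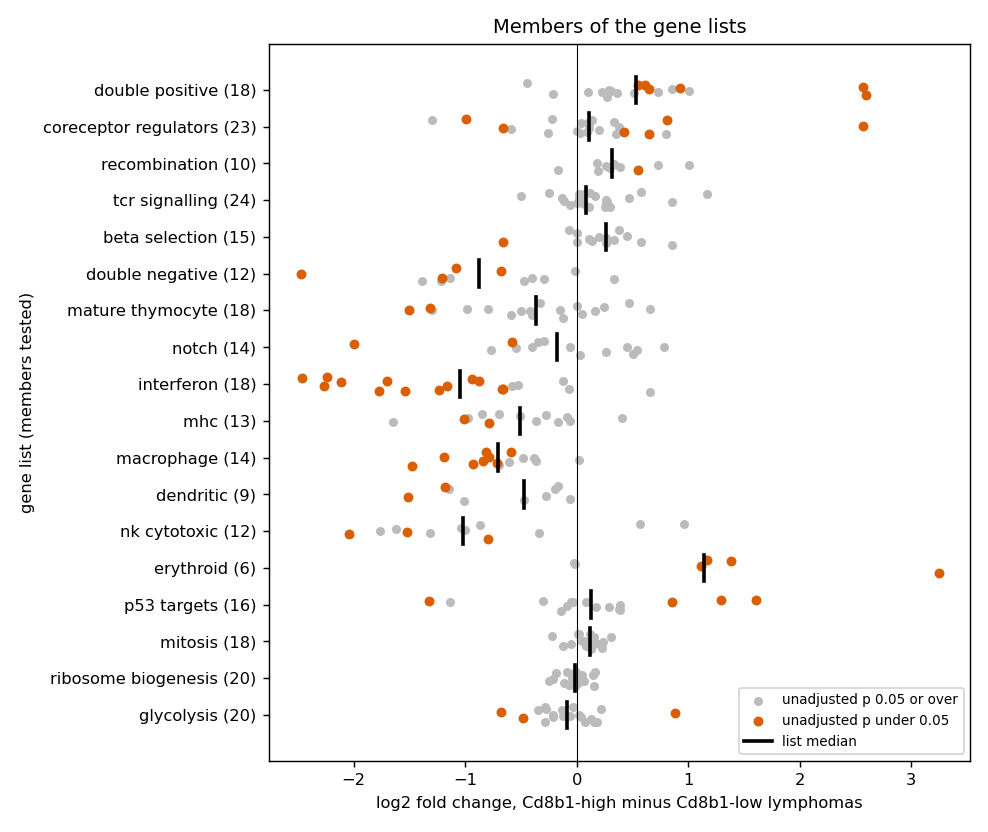
Log2 fold change of Cd8b1-high minus Cd8b1-low lymphomas for each tested member of 18 gene lists, with the number tested in brackets. Orange points had an unadjusted p under 0.05 and black bars are list medians. Medians lie at 0.53 for double-positive markers, -0.88 for double-negative genes, -1.05 for interferon-response genes and -0.71 for macrophage markers, and at -0.02 for ribosome biogenesis; no point shown passed adjustment in edgeR's quasi-likelihood test.

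Set against thymus, both groups differed widely, in comparisons that share the 3 thymus libraries. In Cd8b1-high lymphomas 2689 of 12912 genes passed edgeR's quasi-likelihood test (20.8%), 1427 higher (11.1%) and 1262 lower (9.77%); in Cd8b1-low lymphomas 3239 passed (25.1%), 1738 higher (13.5%) and 1501 lower (11.6%). The split depended on the tool: limma-voom called 1141 higher and 1819 lower in Cd8b1-high and 1438 higher and 1994 lower in Cd8b1-low lymphomas, and limma on log2(TPM + 1) called 964 and 1706, and 1161 and 2213. Leaving out 1 thymus library brought these counts to between 935 and 1390 and to between 1517 and 1801. Of the 18 double-positive markers, 8 fell in Cd8b1-high and 12 in Cd8b1-low lymphomas, against 9.77% and 11.6% of all genes tested. Satb1 fell in both (log2 fold change -1.71, adjusted p = 0.00019, and -2.36, adjusted p = 1.21e-05), as did Rmnd5a (-2.27, adjusted p = 0.000173, and -2.82, adjusted p = 3.19e-05) and Bcl2l1 (-2.07, adjusted p = 0.00634, and -2.998, adjusted p = 0.000528).

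Cd8a fell against thymus in Cd8b1-low lymphomas (-4.41, SE 0.76; adjusted p = 0.00104 by edgeR's quasi-likelihood test) and did not pass in Cd8b1-high lymphomas (-1.82, SE 0.74; adjusted p = 0.087). Without lymphoma 31 the Cd8a value of the Cd8b1-high lymphomas passed (-2.15, adjusted p = 0.0498). The difference between the groups is the test given above, which Cd8a did not pass in edgeR. Cd4 passed in neither (-1.17, adjusted p = 0.332, and -1.68, adjusted p = 0.148). Rag2 fell in both (-3.90, adjusted p = 0.0269, and -4.64, adjusted p = 0.011), as did Dntt (-2.24, adjusted p = 0.0289, and -2.50, adjusted p = 0.0147). The Rag2 and Dntt calls of the Cd8b1-high lymphomas were lost without any 1 thymus library (adjusted p of 0.0635 to 0.0761 and 0.0746 to 0.0861). That of Dntt was also lost with 5 and with 10 lymphomas a side (adjusted p = 0.0932 and 0.0990 by edgeR's quasi-likelihood test). Rag1 fell in the Cd8b1-low lymphomas (-2.50, adjusted p = 0.0418), a call lost without lymphoma 21, 22, 30, 20 or 19 or any thymus library (adjusted p of 0.0506 to 0.125). The Rag1 call was also lost with 5 lymphomas a side and with no filter on low counts (adjusted p = 0.0542 and 0.0507 by edgeR's quasi-likelihood test).

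Of the 18 interferon-response genes, 12 fell in Cd8b1-high lymphomas (9.77% of all genes tested fell), while in Cd8b1-low lymphomas 3 fell and 1 rose (11.6% and 13.5%). Oasl2 had a log2 fold change of -2.50 (SE 0.66; adjusted p = 0.0145) in Cd8b1-high and -0.04 (SE 0.69; adjusted p = 0.975) in Cd8b1-low lymphomas by edgeR's quasi-likelihood test. The Oasl2 call was lost without thymus library 2 (adjusted p = 0.0558) and with 10 lymphomas a side (-1.35, adjusted p = 0.226). Ifit1 fell in both (-4.55, adjusted p = 0.00147, and -2.85, adjusted p = 0.014), and the second call was lost with 5 and with 10 lymphomas a side (-2.46, adjusted p = 0.0519, and -2.61, adjusted p = 0.0589). Bst2 rose in Cd8b1-low lymphomas (1.51, SE 0.49, adjusted p = 0.0336 in the same test). That call was lost without lymphoma 22 or any thymus library (adjusted p of 0.0563 to 0.134) and with 10 lymphomas a side (adjusted p = 0.110). Of the 14 macrophage markers, 8 rose in Cd8b1-high and 12 in Cd8b1-low lymphomas, against 11.1% and 13.5% of all genes tested; Lyz2 had 1.10 (SE 0.25; adjusted p = 0.00737) and 1.88 (SE 0.27; adjusted p = 0.000279).

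Of the 20 ribosome biogenesis genes, 17 rose in Cd8b1-high and 16 in Cd8b1-low lymphomas (11.1% and 13.5% of all genes tested rose), with medians of 1.06 and 1.13, beside medians over all genes of 0.06 and 0.05. Of the 20 glycolysis genes, 12 rose and 1 fell in Cd8b1-high lymphomas and 12 rose in Cd8b1-low lymphomas. Myc rose in both (1.77, adjusted p = 0.00201, and 1.83, adjusted p = 0.00142 by edgeR's quasi-likelihood test) and Bcl11b fell in both (-1.42, adjusted p = 0.00514, and -1.75, adjusted p = 0.00113). Cdkn2a, at 0.122 to 0.327 CPM in thymus, rose in both (6.61, adjusted p = 0.0224, and 6.96, adjusted p = 0.0162, in the same test). Both calls were lost without any 1 thymus library (adjusted p of 0.0794 to 0.107 and 0.063 to 0.0777). They were also lost in limma-voom (adjusted p = 0.150 and 0.194), and the first with 5 lymphomas a side in edgeR (adjusted p = 0.0589). Smim13 fell in both (-0.52, adjusted p = 0.0176, and -1.12, adjusted p = 8.98e-05, by edgeR's quasi-likelihood test). The first call was lost without thymus library 1 or 3 (adjusted p = 0.113 and 0.0635) and with 5 lymphomas a side (adjusted p = 0.0517). Fas fell in both (-2.22, adjusted p = 0.027, and -3.52, adjusted p = 0.00208). Its first call was lost without lymphoma 21 or any thymus library (adjusted p of 0.0508 to 0.103) and with 5 lymphomas a side (0.106). C1qc rose in both (1.35, adjusted p = 0.0271, and 2.19, adjusted p = 0.00223), by edgeR's quasi-likelihood test as for Fas. The first C1qc call was lost without any 1 thymus library (adjusted p of 0.0707 to 0.109), with 5 lymphomas a side (0.0551) and in limma-voom (0.0673).

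The study sorted its lymphomas by mutation of Ikzf1. Going by which lymphomas the authors' filtered tables hold, 4 of 7 Cd8b1-high lymphomas were in the mutated set (57.1%, exact 95% interval 18.4 to 90.1%) and 1 of 7 Cd8b1-low lymphomas was (14.3%, 0.361 to 57.9%). The difference did not pass a two-sided Fisher's exact test (p = 0.266). With the Ikzf1 set as a covariate among the 14 lymphomas, the call of Map3k5 held (log2 fold change -2.51, adjusted p = 0.0232 by edgeR's quasi-likelihood test) and no other gene was called.

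Of the 20 chromosomes tested, chromosome 15 had the median farthest from 0 between the groups, -0.20 over 489 tested genes, with the other chromosomes between -0.10 and 0.14. Against thymus, the median log2 ratio of chromosome 15 genes lay at 0.37 and 0.27 in lymphomas 12 and 34 and between -0.08 and 0.04 in the other 5 Cd8b1-high lymphomas; it lay between 0.31 and 0.51 in 5 Cd8b1-low lymphomas (32, 22, 30, 20 and 18) and at 0.04 and -0.01 in lymphomas 7 and 19. Of the genes named above, Il7r, Itgb7, Nfe2 and Myc lie on this chromosome, and its part in their values was not tested. Chromosome 6, which carries Cd8b1 and Cd8a, had a median of 0.03.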

How the data were processed

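RNA was sequenced from 21 lymphomas and 3 thymus samples. The authors trimmed, aligned and counted reads with cutadapt 1.9.1, HISAT2 2.0.1, SAMtools and HTSeq 0.6.1 on GRCm38.p6 and used edgeR, per the submitters' processing notes; no source used here gives the settings or strand of counting. The deposited table of raw counts per gene (21878 symbols) was the base of all tests, and the deposited TPM values, made by the authors, served for ratios between genes and an alternative test. A further table of CPM values selected on 1 gene was not used. No counts came from columns of other series.

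Lymphomas were ranked by Cd8b1 CPM. The members and gene lists were chosen with earlier results of these data known, so no list or member supplies independent support. Counts were filtered (filterByExpr), scaled (TMM) and fitted over the 7 Cd8b1-high, 7 Cd8b1-low and 3 thymus libraries with edgeR 4.0.16's quasi-likelihood test (glmQLFit) in R 4.3.3, with Benjamini-Hochberg adjustment over 12912 genes, Cd8b1 left out, and a threshold of 0.05. The procedure was tested on simulated data. Alternatives used DESeq2 1.42.0, limma 3.58.1, other scaling, filters, group sizes and rankings, a continuous Cd8b1 covariate, the Ikzf1 set, and each library left out; those without lymphomas 7, 12 and 18 and without 12 and 31 were chosen after the data were seen. Genes were placed with GENCODE M21 (20605 of 21878 symbols, 94.2%). The Ikzf1 sets (11 mutated, 10 unmutated) were read from which lymphomas the authors' filtered tables hold by column name, and their counts equal the main table in 100% of cells.

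Genes named were a fixed set of stage and tumour genes, up to 10 called genes per direction with a mean of 10 CPM or more and at least 6 of 7 libraries above the second-highest of the other group, up to 4 called members of each list or else the 3 with the smallest p, and the neighbours of Cd8b1 and Map3k5; gene models and receptor segments were not named, and other genes are said to be chosen after their values were seen. Depth was 14.999 to 36.6 M counts per library. The exact intervals, given for the Ikzf1-mutated share, cover only the binomial sampling of 7 lymphomas a group. Pairs of libraries within a group differed by more than sampling noise (chi-square per degree of freedom of 66.2 to 316 in Cd8b1-high and 48.9 to 315 in Cd8b1-low lymphomas). Some members of the lists are counted in list totals and not reported by name here.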

Additional observations from a re-analysis of the deposited data

Results flagged for a closer look

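In groups of 7 libraries, a library was noted if its gap to the nearest one exceeded 0.568 of the group's range in log2(CPM + 1). This held in 6 of 122 groups examined, and chance alone gives about 1 in 20. The levels that follow are in CPM, on which the gaps take other shares of the range. Notch1 was lowest in Cd8b1-high lymphoma 12, at 51.9 CPM, with the next at 877 CPM. Trp53inp1 was lowest in Cd8b1-high lymphoma 34, at 68.3 CPM, with the next at 395 CPM. Epor was highest in Cd8b1-high lymphoma 16, at 30.002 CPM, with the next at 0.843 CPM. Lymphoma 7 of the Cd8b1-low group had the most Il7r, at 1457 CPM with the next at 433 CPM, and the most Pde7b, at 11.1 CPM with the next at 2.03 CPM. Pdgfra was highest in Cd8b1-low lymphoma 18, at 25.2 CPM, with the next at 2.29 CPM.

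Map3k5 is listed because its level against thymus differed between the lymphoma groups by a test of the difference itself: the log2 fold change of Cd8b1-high minus Cd8b1-low lymphomas was -2.49 (adjusted p = 0.00121 by edgeR's quasi-likelihood test), with all 7 Cd8b1-high lymphomas below all 7 Cd8b1-low ones.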

How the results depend on the processing

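No paired analysis was possible because the numbers of lymphoma and thymus libraries are only names. Between the lymphoma groups the 1 call became 190 in DESeq2, 21 with the continuous covariate, 0 with 10 lymphomas a side in edgeR (1067 at an unadjusted p under 0.05) and 1 to 4 with 1 library left out; the cause was not tested. Against thymus, 5 lymphomas a side gave 1634 calls for the Cd8b1-high group, and leaving out 1 library gave 935 to 3163 for it and 1517 to 4110 for the Cd8b1-low group, lowest without a thymus library, where fewer samples enter. Calls in DESeq2 were 3706 and 4131. The Ikzf1-mutated share differed by 42.9 percentage points, by 20 with 5 and by 40 with 10 lymphomas a side.

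Directions (log2 fold changes) turned for genes that did not pass in that comparison. Between the lymphoma groups, without lymphomas 12 and 31, Cd4 was -0.43, Dntt -0.54, Myc 0.0799 and Cdkn2a 0.0328, and without 7, 12 and 18, Dntt was -0.38 and Cdkn2a 0.0990. With 10 a side Rag2 was -0.39 and Myc 0.0995; ranked by TPM, Myc was 0.0731 and Cdkn2a 0.39; with the Ikzf1 set, Ikzf1 was -0.29 and Myc 0.10. In limma-voom, log2(TPM + 1) and log2(TPM + 0.1), Myc was 0.0101, 0.0610 and 0.0615 and Cdkn2a 0.62, 0.0324 and 0.12. With 1 library left out, values ran from -0.0265 to 0.77 for Cd4, -0.21 to 0.67 for Dntt, -1.06 to 0.30 for Il2ra, -0.18 to 0.14 for Myc and -1.15 to 0.20 for Cdkn2a. Against thymus, Ptcra in those limma fits was -0.28, -0.20 and -0.35 in Cd8b1-high and -2.19, -1.17 and -1.71 in Cd8b1-low lymphomas. Ikzf1 in Cd8b1-high lymphomas ran from -0.22 to 0.0576 with 1 library left out, and Oasl2 in Cd8b1-low lymphomas was 0.11 ranked by TPM, 0.32 with 5 a side and -0.41 to 0.14 with 1 library left out. The cause was not tested. At few CPM, as in Slc35d3 or Oas1a, counts limit what a difference can show.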
